A study of Mus musculus with 16 samples.

Results

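Control line 5 was 1 of the 4 unselected Control lines of a breeding experiment in which 4 High Runner (HR) lines were selected for voluntary wheel running. It was represented by 2 of the 16 vomeronasal organ (VNO) libraries, 1 from males and 1 from females, and the line named in the label chose them. They were set against the 6 libraries of Control lines 1, 2 and 4, also 1 male and 1 female library per line. All mice had the strain background Hsd:ICR and were 12 weeks old at generation 88, and each library was made from the pooled VNOs of 3 mice of 1 sex and 1 line. No line carried an engineered allele in the labels, and no treatment was given there. The 8 HR libraries, from lines 3, 6, 7 and 8, entered the test only in 1 alternative fit and otherwise served to show whether a level of line 5 also occurred elsewhere. The question here was which genes stood apart in the same direction in both pools of line 5.

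The VNO is a paired chemosensory tube at the base of the nasal septum that detects pheromones and other social odors. Its sensory neurons each use mainly 1 or a few receptors of the *Vmn1r*, *Vmn2r* or *Fpr* families, which lie in large, variable gene clusters. *Vmn1r* neurons signal through the G protein subunit encoded by *Gnai2* and *Vmn2r* neurons through that encoded by *Gnao1*. Closed breeding lines that started from 1 outbred stock can each carry their own mixture of alleles, and a Control line is subject to this drift like any other.

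The gene counts of the line 5 libraries summed to 28962284 in males and 15998552 in females, the lowest of the 4 Control libraries in each sex, against 37846831 to 67406690 and 18475375 to 70875276 in the other Control males and females. Values are given as CPM (normalized counts on 1 common library scale) after TMM scaling over the 16 libraries, and differences as log2 fold changes from a quasi-likelihood fit in edgeR that held sex constant. *Omp*, the marker of mature sensory neurons, stood at 2020 CPM in line 5 males and 1260 in line 5 females, with the other Control libraries between 1850 and 2600. *Gnao1* stood at 371 and 304 CPM, below every library of its sex in the other 7 lines, and *Gnai2* at 1060 and 715 CPM. None of the 3 passed the test, with log2 fold changes of -0.39, -0.34 and -0.46 and adjusted p-values of 0.350, 0.300 and 0.303. *Trpc2*, the channel gene of these neurons, was listed at 0 in every library, and 97.5% of its 75-base words also occur in *Xntrpc*, a longer gene model that covers it. *Xist* was at 1640 CPM in line 5 females and 0.394 in line 5 males, and *Ddx3y* at 0 and 58.5, as the sex labels give.

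The line 5 female library stood apart from the other 3 Control females. It lay outside their range for 71.9% of the 16852 genes tested, whereas the line 5 male library lay outside the range of its sex for 40.1%. With so few libraries per sex, any library is the highest or lowest for many genes. Genes with short transcripts were low in the line 5 female library. The median difference from the other Control females was -0.90 on the log2 scale for transcripts of 400 to 600 bases and -0.47 for those of 600 to 800 bases. It was between -0.03 and 0.06 in each length class from 1500 bases up, and the line 5 male library had medians between -0.03 and 0.02 in every class.

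**Figure D1:**
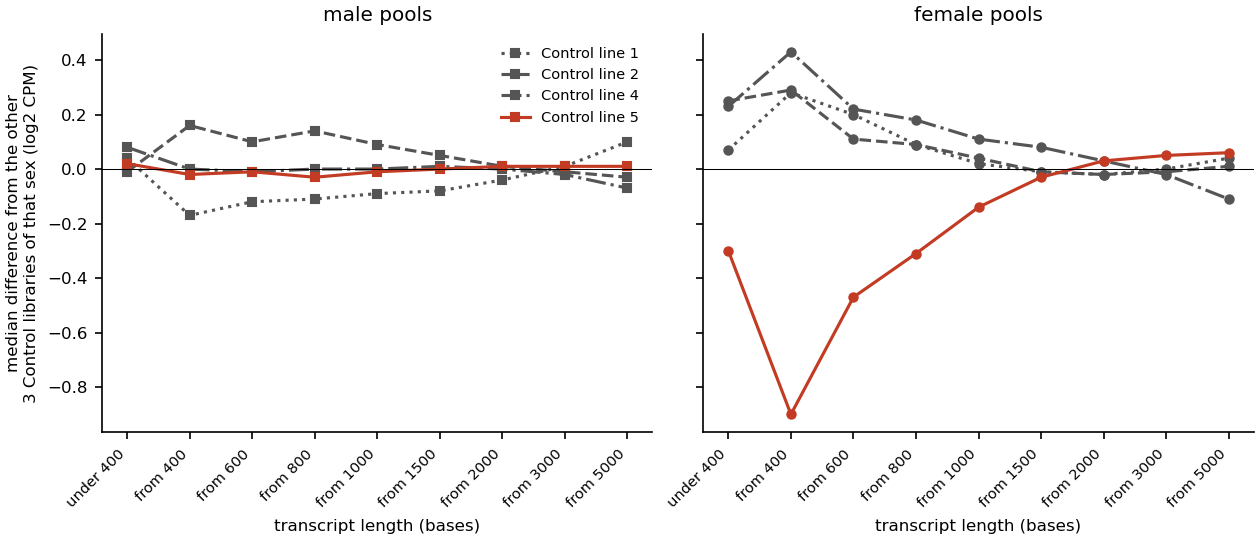
Median log2 CPM difference of each Control library from the other 3 Control libraries of its sex (y axis) in classes of transcript length in bases (x axis), males on the left and females on the right. The line 5 female library reaches -0.90 at 400 to 600 bases, and the other 3 females lie above 0 there because the line 5 library is part of their reference.

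Both line 5 libraries were also rich in gland products. The summed level of 27 lipocalins and gland secretions was 211900 CPM in line 5 males and 114600 CPM in line 5 females. The other Control libraries held 11230 to 104200 CPM in males, the highest being line 4, and 21060 to 57350 CPM in females. The HR libraries reached 2539 to 194300 CPM, so high totals were not particular to line 5. In whole tissue, more cells of a type and more RNA per cell cannot be told apart, and the part of these totals and of the short-transcript loss in the results was not tested.

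Of the 16852 genes tested, 12 differed between line 5 and the other Control lines at an adjusted p under 0.05, which is 0.0712% of the genes. Of the 12, 2 were higher and 10 lower in line 5. All 12 lay beyond the 3 other Control libraries in both sexes, a pattern that 21.6% of the genes tested showed. The calls and this pattern rest on the same values, so the higher share among the 12 is no separate evidence. Another 25 genes had an adjusted p between 0.05 and 0.1, and 15.1% of the genes tested had an unadjusted p under 0.05. The test treated the male and female pool of a line as separate samples, and with the line as a block or with the pools of a line summed no gene passed (1084 and 1123 genes had an unadjusted p under 0.05). The count also turned on single libraries: it was 0 without line 5 females (559 genes with an unadjusted p under 0.05), 428 without line 5 males and 1002 without line 4 males. It was 6 without line 1 males, line 1 females or line 2 females, and 10 and 8 without line 2 males and line 4 females. DESeq2 called 422 genes, all 12 among them. Both pools of line 5 come from different mice of the same line, so the p-values describe how line 5 differs from 3 other lines and not how Control lines differ in general.

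*Gfpt1* encodes the enzyme that commits glucose to hexosamine synthesis, the supply of sugar units for protein glycosylation. It stood at 636 CPM in line 5 males and 686 CPM in line 5 females. The other Control libraries lay between 211 and 266 CPM and the HR libraries between 200 and 320 CPM. The groups did not overlap, and the level of line 5 was outside every other line in the series. The line mean was 661 CPM against 240 ± 15.9 CPM (SD, n = 3 lines), a log2 fold change of 1.46 with a standard error of 0.10 and an adjusted p of 0.00562. The gene lies at chr6:87042846-87092197 on GRCm38, shares no 75-base word with another transcript, and none of the 11 genes tested within 500 kb lay above the other Control lines in both sexes.

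*Slc5a11*, a sodium-dependent transporter of inositol and other sugars, was the other gene called higher. It stood at 12.5 CPM in line 5 males and 12.1 CPM in line 5 females. The other Control libraries lay between 2.67 and 3.73 CPM. HR line 8 was also raised, at 7.88 CPM in males and 7.76 CPM in females, while the other HR lines stayed between 2.41 and 3.46 CPM. The log2 fold change was 2.02 with a standard error of 0.18 and an adjusted p of 0.0108.

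*Vmn1r188*, a receptor gene of the *Vmn1r* family at chr13:22084440-22095916, was the only vomeronasal receptor called. It had 0 counts in both line 5 libraries and 281 to 1369 counts in the other 6 Control libraries. The other Control libraries lay between 10 and 19.4 CPM, with a line mean of 14.1 ± 3.87 CPM (SD, n = 3 lines). Against a floor of 3 counts over both line 5 libraries, 0.073 CPM, the level was at least 193-fold lower, with an adjusted p of 0.00774. Line 5 was not alone in this. HR lines 3, 6 and 8 had 0 to 2 counts per library, whereas HR line 7 held 6.95 CPM in males and 5.98 CPM in females. Of its 75-base words, 9.04% also occur in other genes, mostly *Vmn1r222* and *Vmn1r-ps94*, a pseudogene whose exons overlap those of *Vmn1r188* on the same strand. The paper states that the alignment accepted no mismatches and left out reads mapping to several places. Reads of words repeated elsewhere in the genome may therefore be missing. Reads of an allele that differs from the reference may be missing too. Sequence differences and lower expression therefore cannot be told apart in these counts.

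The promoter windows of 3 of the called genes are shown because these genes stood apart in the clearest ways: the receptor without counts, the more abundant of the 2 higher genes, and *Dio3*, which moved with its divergent partner. They are from RefSeq on GRCm38.p6, 250 bases before to 50 after the start, all on the plus strand, where 9 of the 12 called genes had an entry. Capitals mark TATAAA and GGGCGG on either strand (reverse complements TTTATA and CCGCCC), which occur in 13.6% and 35.7% of the 32851 windows.
Vmn1r188, chr13:22087628-22087927: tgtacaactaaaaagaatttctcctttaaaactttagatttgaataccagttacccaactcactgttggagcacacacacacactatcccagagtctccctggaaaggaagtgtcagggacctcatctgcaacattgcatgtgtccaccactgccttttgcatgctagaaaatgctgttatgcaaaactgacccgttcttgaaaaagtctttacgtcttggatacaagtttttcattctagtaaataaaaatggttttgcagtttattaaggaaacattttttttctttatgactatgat
Gfpt1, chr6:87042596-87042895: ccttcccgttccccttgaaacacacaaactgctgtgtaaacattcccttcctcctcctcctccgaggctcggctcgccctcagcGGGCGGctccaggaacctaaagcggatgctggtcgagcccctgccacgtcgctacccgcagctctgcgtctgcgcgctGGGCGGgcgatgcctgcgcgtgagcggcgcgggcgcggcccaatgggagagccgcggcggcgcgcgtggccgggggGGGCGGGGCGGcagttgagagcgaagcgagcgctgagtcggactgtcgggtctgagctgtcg
Dio3, chr12:110278980-110279279: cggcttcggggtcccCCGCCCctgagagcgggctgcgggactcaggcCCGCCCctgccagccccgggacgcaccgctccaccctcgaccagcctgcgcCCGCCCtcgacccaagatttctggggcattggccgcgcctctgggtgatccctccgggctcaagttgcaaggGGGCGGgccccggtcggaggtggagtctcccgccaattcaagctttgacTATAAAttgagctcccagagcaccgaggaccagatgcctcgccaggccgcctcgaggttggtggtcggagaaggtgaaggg
The *Vmn1r188* window holds neither motif and 2 CG dinucleotides, against a median of 7 over all windows. Its RefSeq start lies inside the longer gene model used for the gene's position above. The *Gfpt1* window holds 38 CG dinucleotides and 4 GGGCGG matches. The *Dio3* window holds 25 CG dinucleotides, 4 GGGCGG matches and a TATAAA that begins 31 bases before the start. These are letters of the reference genome and not of the mice studied.

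*Dio3* encodes the deiodinase that inactivates thyroid hormone, and *Dio3os* is a noncoding transcript on the opposite strand beside it, at chr12:110275385-110278172. *Dio3* stood at 8.30 CPM in line 5 males and 6.17 CPM in line 5 females, with the other Control libraries between 19.5 and 24.5 CPM. The next lowest libraries were those of HR lines 3 and 6, between 9.92 and 10.7 CPM, so line 5 was the lowest of all 8 lines in both sexes. The log2 fold change was -1.61 with a standard error of 0.15 and an adjusted p of 0.0135. *Dio3os* stood at 5.0 and 6.24 CPM against 12.7 to 16.5 CPM in the other Control libraries, which was lower by a log2 fold change of -1.40 with an adjusted p of 0.0135 and a standard error of 0.14. It too was below all 7 other lines in both sexes. Farther along the same imprinted domain, *Meg3*, *Rian* and *Mirg* did not pass the test, with log2 fold changes of -0.30, -0.07 and 0.03.

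*Pianp*, a membrane protein that binds a receptor for immune inhibition, was lower in line 5 than in all 7 other lines. It stood at 5.27 CPM in line 5 males and 4.58 CPM in line 5 females. Values in the other Control lines lay between 38.5 and 73.1 CPM. HR lines 3 and 8 were intermediate, between 10 and 19.2 CPM, and HR lines 6 and 7 lay between 49.7 and 56.9 CPM. The line mean of 4.93 CPM against 50.8 ± 17.7 CPM (SD, n = 3 lines) gave a log2 fold change of -3.36 with a standard error of 0.38 and an adjusted p of 0.0359. Of 43 genes tested within 500 kb, 8 also lay below the other Control lines in both sexes, among them *Ptms* and *Chd4*, beside a background of 11.2% for that direction.

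In total 5 of the 12 called genes lay beyond all 7 other lines in both sexes (*Gfpt1*, *Slc5a11*, *Dio3*, *Dio3os* and *Pianp*), a pattern that 7.46% of the genes tested showed. All 12 already lay beyond the other 3 Control lines, so a share above 7.46% is partly built in. Of the 3638 genes tested that lay beyond those 3 lines in both sexes, 1257 lay beyond all 7. The other 7 called genes were low in line 5 and in at least 1 HR line.

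*C130046K22Rik*, a noncoding transcript on chromosome 11, had 5 counts in line 5 males and 2 counts in line 5 females. That is 0.197 and 0.127 CPM, against 4.41 to 5.98 CPM in the other Control libraries. HR line 6 had no counts in either sex and HR line 8 had 0.751 and 0.0539 CPM, while HR lines 3 and 7 lay between 4.30 and 5.55 CPM. Its adjusted p was 0.00562, for a log2 fold change of -4.85 with a standard error of 0.31. One of its exons overlaps *Gosr2* on the opposite strand, and 11% of its words occur there.

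*4930412C18Rik*, a noncoding transcript on chromosome 4, and *2410127L17Rik*, a protein-coding gene on chromosome 19, shared their pattern with HR line 7. *4930412C18Rik* stood at 1.26 and 1.34 CPM in line 5 males and females, with the other Control libraries between 6.77 and 8.46 CPM and HR line 7 at 1.24 CPM in both sexes. *2410127L17Rik* stood at 0.354 and 0.445 CPM, with the other Control libraries between 2.35 and 3.06 CPM and HR line 7 at 0.341 and 0.569 CPM. Their log2 fold changes were -2.56 and -2.74 with adjusted p-values of 0.00562 and 0.0135. For *2410127L17Rik*, 20% of the words occur in the pseudogenes *Gm8116* and *Gm7622*, so reads from these words may be missing from its counts.

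**Figure D2:**
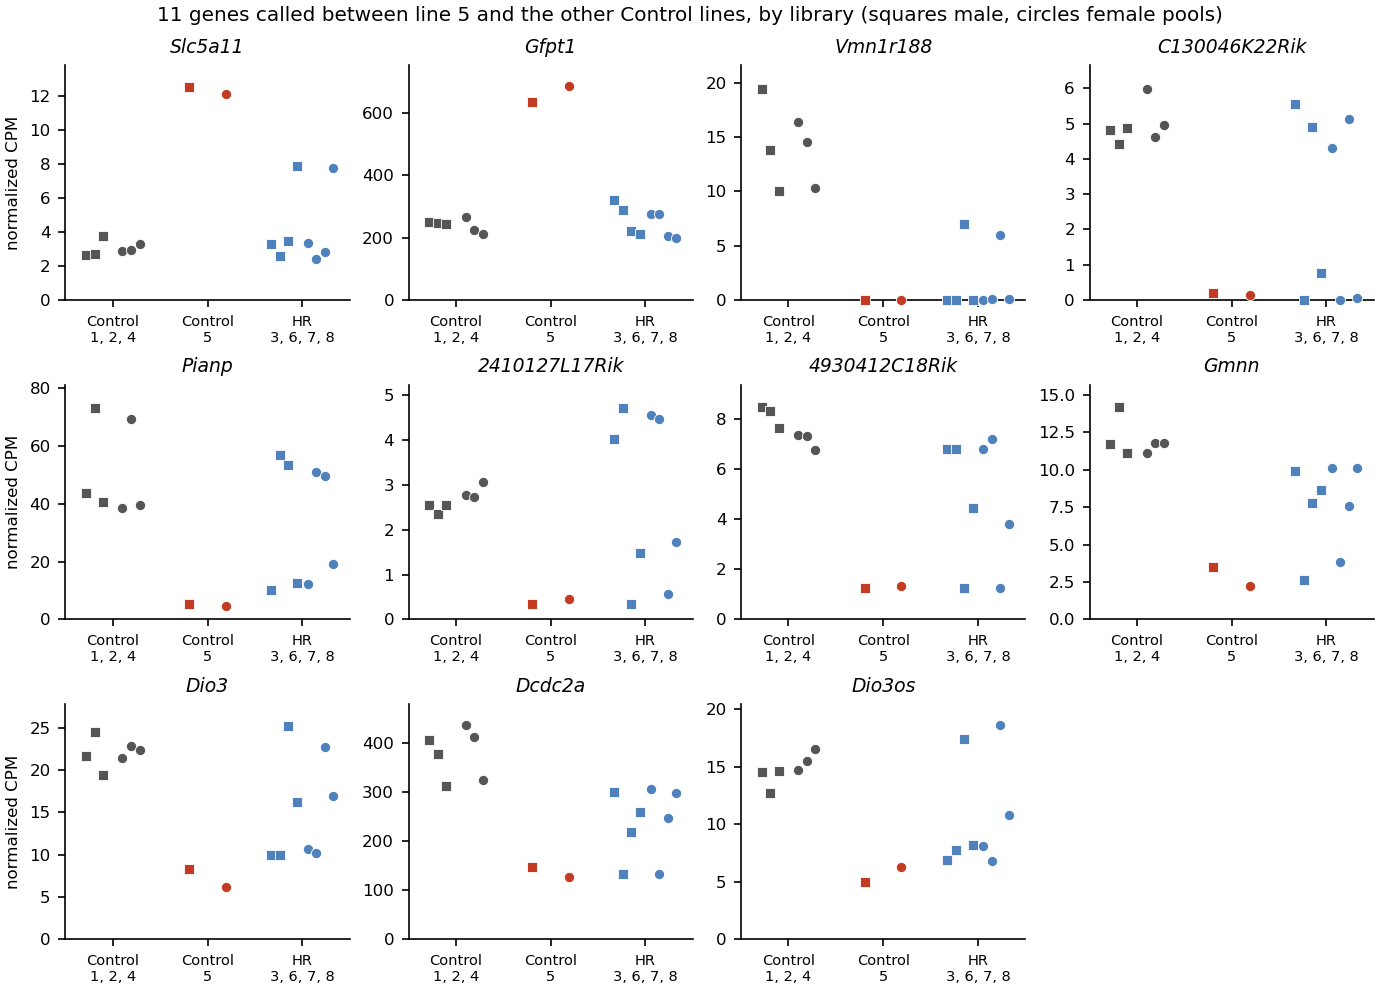
Normalized CPM (y axis, from 0) of 11 of the 12 called genes in Control lines 1, 2 and 4, Control line 5 and the HR lines (x axis), 1 point per library with squares for male and circles for female pools. Both line 5 points lie outside the other Control points in every panel, and for 6 of the 9 lower genes shown at least 1 HR library is at or below the line 5 library of its own sex.

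*Gmnn*, *Dcdc2a* and *Vmn1r188* lie on chromosome 13 in the stretch with the most shifted genes, described next. *Gmnn* encodes geminin, an inhibitor of repeated DNA replication, and stood at 3.50 CPM in line 5 males and 2.23 CPM in line 5 females. The other Control libraries lay between 11.1 and 14.2 CPM, the highest being line 2 males, and HR line 6 was as low at 2.63 and 3.87 CPM. Its adjusted p was 0.0135, for a log2 fold change of -2.07 with a standard error of 0.20. *Dcdc2a*, a doublecortin-domain protein of cilia and neuronal migration, stood at 147 and 126 CPM against 311 to 436 CPM, with HR line 6 at 133 CPM in both sexes. The fitted difference was -1.47 on the log2 scale, with a standard error of 0.17 and an adjusted p of 0.0444.

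No run of 3 or more called genes with gaps of at most 1 Mb was found, so positions were also described for a looser set, chosen after the calls were seen: the 572 genes (3.39% of those tested) that lay beyond the other 3 Control lines in both sexes and had an absolute log2 fold change of at least 1. Of these, 336 were higher and 236 lower in line 5. On chromosome 13, 17 of them formed 1 run with gaps under 1 Mb, chr13:21312125-25210706, which was 17.7% of the 96 genes tested in that span, and 14 of the 17 were lower. Genes that lay below the other Control lines in both sexes, whatever the size, numbered 22 of the 96, and 8 lay above. All genes tested had shares of 11.2% and 10.43%. The span was chosen from the same values, and its 17 defining genes are among those counted. A share above that of all genes is therefore partly built in and is no separate evidence.

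The end of this run nearest *Dcdc2a* held mostly lower genes. *Acot13*, an acyl-CoA thioesterase, stood at 23.6 and 14.6 CPM against 40.2 to 67.7 CPM in the other Control libraries. *Tdp2*, a DNA repair enzyme, stood at 12.5 and 15 CPM against 25.1 to 29.2 CPM. *Scgn*, a calcium-binding protein of secretory and sensory cells, stood at 39.2 and 32.0 CPM against 82.3 to 133 CPM. HR line 6 was near the line 5 level for *Tdp2*, at 13.1 and 14.9 CPM, and the next lowest line for *Scgn*, at 41.1 and 41.2 CPM. For *Acot13* the HR libraries lay between 25.1 and 50.0 CPM, all above line 5. None of the 3 passed the test, with adjusted p-values of 0.0526 for *Tdp2* and 0.0775 for *Scgn*. *Mrs2*, a mitochondrial magnesium channel, and *Gpld1*, an enzyme that cleaves lipid anchors, lay below all 7 other lines in both sexes, with log2 fold changes of -0.97 and -0.59 that did not pass the test. Their exons overlap on opposite strands, and 31.7% of the words of *Mrs2* and 44.0% of those of *Gpld1* occur in the other gene, so with the counting strand unknown they are not separate observations. These genes were named after their values were seen.

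The same stretch held 35 tested vomeronasal receptors, of which 7 lay below the other Control lines in both sexes and none above. The shares were 15.4% and 5.96% of all receptors tested and 11.2% and 10.43% of all genes. Among the 7, *Vmn1r188*, *Vmn1r193*, *Vmn1r194*, *Vmn1r221* and *Vmn1r223* belong to the looser set that defined the run. The count is therefore raised by the choice of the stretch and is no separate evidence. *Vmn1r194* stood at 2.16 and 3.18 CPM in line 5 against 5.81 to 14.1 CPM in the other Control libraries, and below every HR library. *Vmn1r221* and *Vmn1r223* were low in Control line 1 and in HR lines 6 and 8 as well. *Vmn1r223* stood at 0.984 and 0.700 CPM in line 5, at 1.38 and 1.44 CPM in line 1 and at 5.36 to 9.76 CPM in lines 2 and 4. *Vmn1r212* went the other way between lines, with 7.71 and 8.27 CPM in line 5, 9.72 and 8.88 CPM in line 1 and at most 0.0933 CPM in lines 2 and 4. Levels near 0 in some lines and clearly above it in others, with both sexes of a line alike, were therefore seen in several receptor genes here. Reads with a mismatch to the reference were not counted, and the part of sequence differences in these levels was not tested. The stretch was chosen for genes of the looser set, which raises the next share as well. Among 27 tested histone genes of the stretch, 5 were in the looser set, 2 higher and 3 lower, beside 3.39% of all genes. Most of them were under 1 CPM, and 16.9 to 91.5% of their words occur in other histone genes, so their counts are uncertain.

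**Figure D3:**
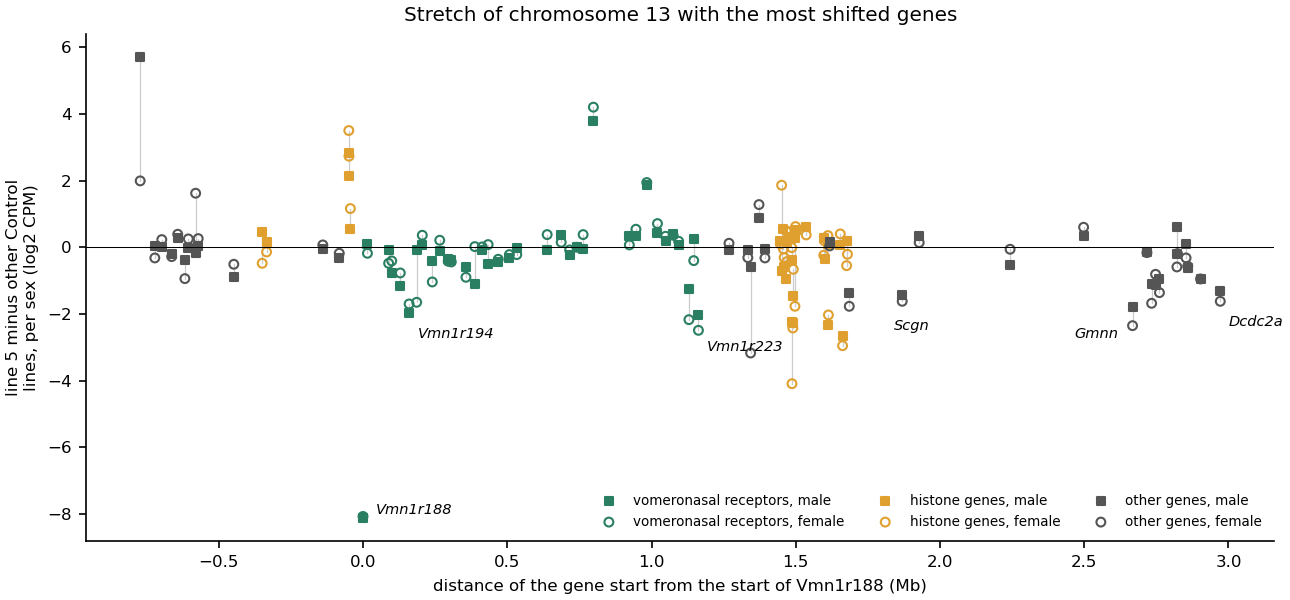
Difference of line 5 from the mean of the other 3 Control lines within each sex (y axis, log2 CPM) for the 96 genes tested in the chromosome 13 run, by distance of the gene start from that of Vmn1r188 in Mb (x axis). Filled squares are males and open circles females, joined by a line for each gene, and colors separate receptors, histone genes and other genes. Vmn1r188 lies below -8 in both sexes, and Scgn, Gmnn and Dcdc2a lie below -1.

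Over the whole genome, 285 of 343 listed *Vmn1r*, *Vmn2r* and *Fpr* genes passed the filter on low counts, and 1, *Vmn1r188*, was called. In both sexes 44 of the 285 lay below the other 3 Control lines and 17 above, which is 15.4% and 5.96%, beside 11.2% of all genes tested below and 10.43% above. Their median log2 fold change was -0.18, and that of all genes was -0.01. Below all 7 other lines lay 18 of them and above lay 6, where the background was 3.75% and 3.71% of genes. The shares below were similar in the 2 large families, 26 of 158 *Vmn1r* genes (16.5%) and 17 of 122 *Vmn2r* genes (13.9%). The 7 lower receptors of the chromosome 13 stretch are among the 26. Summed over the families, the receptors held 7503 CPM in line 5 males and 8352 CPM in line 5 females, inside the ranges of 6363 to 9105 and 7187 to 8587 CPM of the other Control libraries.

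Single receptors outside chromosome 13 differed more than these sums, and those given here were chosen after their values were seen. *Vmn1r185* stood at 2.24 CPM in line 5 males and 2.35 CPM in line 5 females. Values in the other Control lines lay between 4.54 and 44.5 CPM, and every HR library was above line 5. *Fpr-rs6* stood at 2.16 and 2.35 CPM, just under Control line 1 at 3.25 and 2.47 CPM, with lines 2 and 4 between 10.7 and 16.1 CPM. *Vmn2r114* stood at 1.73 and 2.29 CPM, again near line 1 at 2.69 and 2.73 CPM, with lines 2 and 4 between 10 and 15.1 CPM. In the other direction, *Vmn2r123* stood at 5.0 and 15.8 CPM against 1.96 to 2.93 CPM, and HR line 3 shared this with 11.8 and 14.4 CPM. *Vmn2r76* stood at 65.7 and 71.0 CPM against 34.6 to 61.3 CPM. None of these 5 passed the test, and the log2 fold changes ran from -3.28 for *Vmn1r185* to 2.12 for *Vmn2r123*. Of the words of *Vmn2r114* and *Fpr-rs6*, 9.55% and 12.2% occur in related receptors, so reads from these words may be missing from their counts.

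The *H2-Mv* genes, nonclassical major histocompatibility complex (MHC) genes expressed with *Vmn2r* receptors, had a median log2 fold change of -0.33 over 9 tested members, and 1, *H2-M10.2*, lay below the other Control lines in both sexes. No member was called. *H2-M10.2* stood at 84.7 and 50.5 CPM in line 5 against 92.9 to 150 CPM.

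Genes of the MHC class I and antigen processing list and of the MHC class II list were on the low side without passing the test. Both lists hold more than the classical MHC genes. In both sexes 8 of 16 tested class I and antigen processing genes and 5 of 12 class II genes lay below the other Control lines and none above, beside 11.2% of all genes. *H2-Eb1*, a class II chain, stood at 16.5 and 9.29 CPM in line 5, at 36.3 and 43.2 CPM in line 1 and at 127 to 159 CPM in lines 2 and 4. HR line 6 was as low, at 14.9 and 15 CPM. The part of sequence differences from the reference in these MHC counts was not tested. *Cd74*, the class II invariant chain, stood at 598 and 493 CPM against 596 to 859 CPM in the other Control libraries, below the range of its own sex in both. *B2m*, the light chain of class I, stood at 373 and 301 CPM against 412 to 494 CPM. Of the list medians, class I was -0.42 and class II -0.31. The macrophage list had a median of 0.22 with none of 8 below in both sexes and 3 above, beside 11.2% and 10.43% of all genes. Its members summed to 105.7 and 105.1 CPM in line 5 against 78.04 to 107.1 CPM in the other Control libraries, and the part of these cells in the MHC values was not tested. Interferon-stimulated genes had 6 of 16 below in both sexes, beside 11.2% of all genes, and a median of -0.23.

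**Figure D4:**
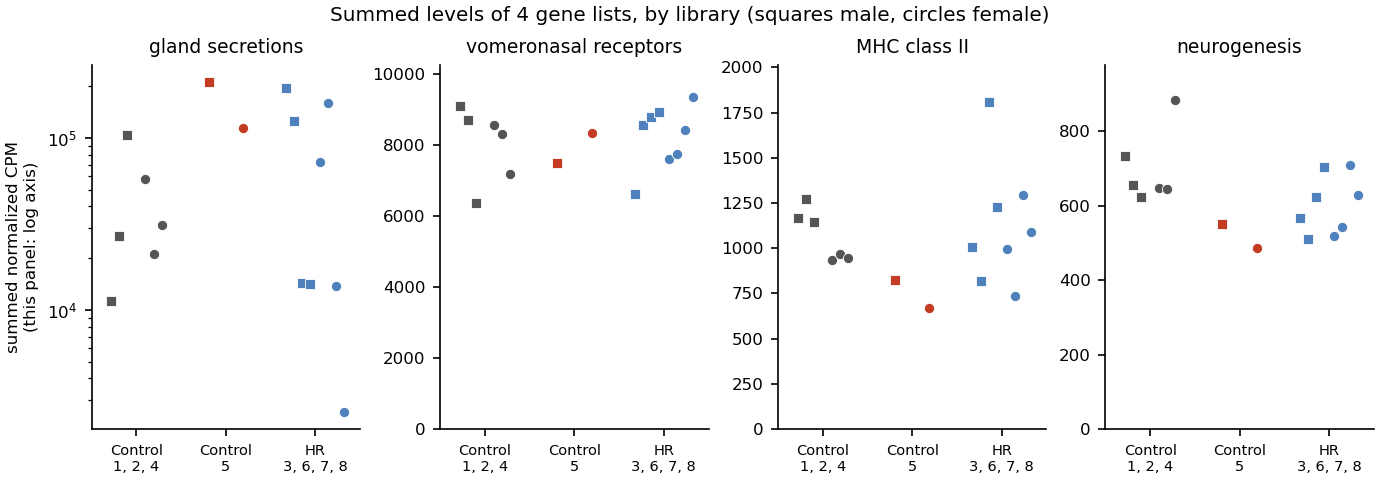
Summed normalized CPM (y axis, log in the first panel and from 0 in the others) of 4 gene lists in Control lines 1, 2 and 4, Control line 5 and the HR lines (x axis), 1 point per library with squares for males and circles for females. Line 5 is highest among Control libraries of its sex for gland secretions and lowest for MHC class II and neurogenesis, and lies inside their range for receptors.

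Neuronal lists held no called gene. Of 12 neurogenesis genes, 5 lay below the other Control lines in both sexes, beside 11.2% of all genes, and the list median was -0.29. *Sox2*, a factor of progenitor and supporting cells, stood at 278 and 243 CPM against 304 to 422 CPM, and *Gap43*, a growth cone protein of immature neurons, at 40.1 and 25.6 CPM against 32.2 to 51.1 CPM. Of 13 transduction genes tested, 1 lay above and 2 below in both sexes, near the shares of all genes (10.43% and 11.2%), with a median of -0.19. *Gng13*, a G protein gamma subunit with a short transcript, stood at 35.6 CPM in line 5 males and 2.29 CPM in line 5 females, against 25.0 to 53.8 CPM in the other Control libraries, so that only the female library was low. HR line 3 females were low too, at 1.51 CPM.

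Gland genes lay on the high side. Of 22 tested members of the gland list, 8 lay above the other Control lines in both sexes and 1 below, beside 10.43% of all genes above, none was called and the list median was 1.05. *Obp2a*, an odorant-binding protein, stood at 75500 and 30600 CPM in line 5 against 3850 to 36200 CPM in the other Control libraries. *Dmbt1*, a secreted mucosal protein, stood at 28600 and 30200 CPM against 1530 to 12900 CPM. *Muc5b*, a mucin, stood at 64.3 and 89.9 CPM against 4.31 to 33.3 CPM. *Bpifb9a* was the member below, at 0.157 and 0.255 CPM against 1.21 to 25.3 CPM. Of 7 tested B and plasma cell genes, 2 lay above the other Control lines in both sexes and 1 below. All genes had shares of 10.43% and 11.2%. Log2 fold changes in that list ran from -1.48 to 2.08, and none was called. Its member *Jchain*, which joins the antibodies that plasma cells secrete into mucus, stood at 29.8 and 52.8 CPM against 5.23 to 19.8 CPM. Smooth muscle genes had a median of 1.34 with none of 5 beyond the others in both sexes, and summed to 762.6 and 1489 CPM against 138.2 to 1031 CPM in the other Control libraries.

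Of 9 listed genes of main olfactory transduction, 2 lay above the other Control lines in both sexes and 1 below, beside 10.43% and 11.2% of all genes, and the list median was -0.06. Their sum was 1518 CPM in line 5 males, inside the 1334 to 1950 CPM of the other Control males, and 1229 CPM in line 5 females, below the 1306 to 1698 CPM of the other Control females. Single genes, chosen after their values were seen, were high in the line 5 male library alone among the Control libraries. *Cnga2*, the olfactory cyclic-nucleotide channel, stood at 5.19 CPM in line 5 males and 0.127 CPM in line 5 females, against 0.0505 to 0.368 CPM in the other Control libraries. *Stoml3* stood at 7.56 and 0.191 CPM and *Cyp2g1*, an enzyme of olfactory supporting cells, at 38.4 and 3.50 CPM. The 1125 listed odorant receptors summed to 112 CPM in line 5 males and 114 CPM in line 5 females, above 44.4 to 85.4 CPM in the other Control libraries and with HR lines at up to 110.3 CPM. Of the 46 that passed the filter, 11 lay below and 2 above in both sexes, beside 11.2% and 10.43% of all genes, with a median of -0.70.

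The 2 pools hold different mice, so each can be read against the other. The line 5 female library lay at least 1 log2 unit above the other 3 Control females for 516 genes and below for 592, together 6.57% of the genes tested. Of the 516, 190 (36.8%) also lay above the other Control males in line 5 males, where 20.4% of all genes did. Of the 592, 242 (40.9%) lay below in males, where 19.7% of all genes did, and 79 lay above. The male library passed the same distance for 208 genes (1.23%). Of its 134 higher genes, 93 (69.4%) were higher in females too, beside 35.3% of all genes, and of its 74 lower genes, 58 (78.4%) were lower, beside 36.6%.

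Across all genes, the differences of the 2 pools had a Pearson correlation of 0.51 and a Spearman correlation of 0.44 (16852 genes, which are not independent and share library effects). Among the 15243 genes with transcripts of at least 1000 bases they were 0.54 and 0.45. With the 572 genes of the looser set left out they were 0.35 and 0.38. Those genes were chosen for a shared direction in both pools, so leaving them out lowers the correlations by construction.

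**Figure D5:**
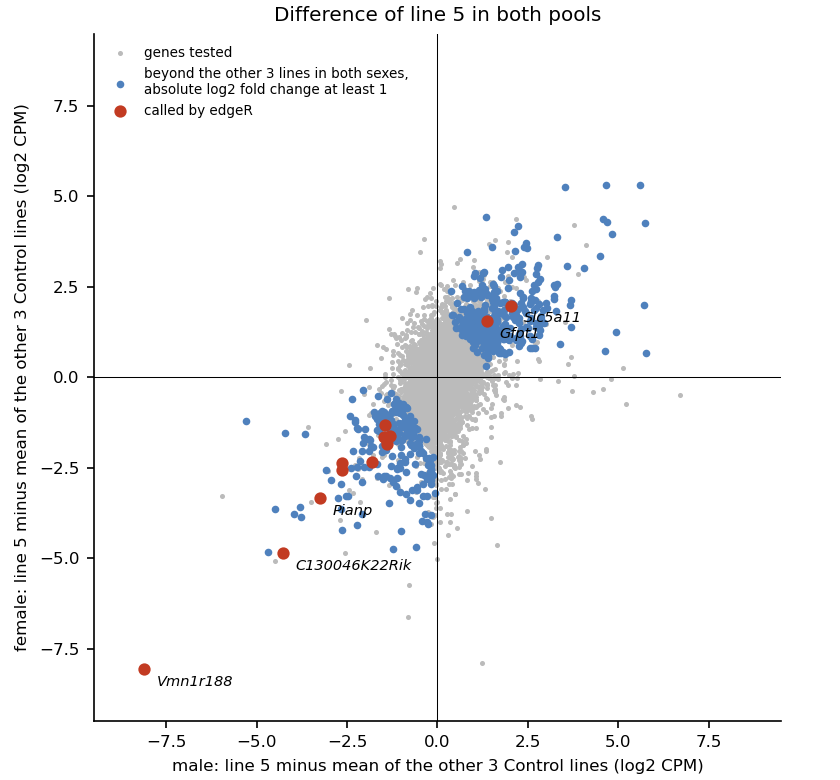
Difference of line 5 from the mean of the other 3 Control lines in log2 CPM, males on the x axis and females on the y axis, 1 point per gene tested. Red points are the 12 called genes, blue points the 572 genes beyond the other lines in both sexes with an absolute log2 fold change of at least 1, and all red points lie in the quadrants where both pools share a sign.

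The difference of line 5 depended on sex for 39 of 17368 genes tested for the interaction of line 5 and sex (0.225%), all 39 lower in line 5 females. They included 16 ribosomal protein genes and 13 of mitochondrial proteins. Their transcripts ran from 362 to 3901 bases, with 32 of the 39 under 1000 bases and a median of 612 bases against 2789 bases over all genes. *Atp5k*, a subunit of the mitochondrial ATP synthase, stood at 42.5 CPM in line 5 males, between 40.3 and 50.2 CPM in the other males. It stood at 2.93 CPM in line 5 females, against 39.8 to 43.8 CPM in the other females, an interaction of -3.77 on the log2 scale with a standard error of 0.24 and an adjusted p of 0.0185. The same loss was seen outside line 5: in the HR line 3 female library *Atp5k* stood at 2.61 CPM, and all 39 genes lay below the other 3 Control females there. *Tmsb10*, which binds actin monomers, stood at 46.9 CPM in line 5 males and 3.69 CPM in line 5 females, against 52.3 to 71.2 CPM in the other Control libraries. Fitted on transcripts of at least 1000 bases alone, none of 15604 genes passed in edgeR, and 1204 had an unadjusted p under 0.05. A single library stood for each sex of line 5, so sex and that library cannot be told apart. None of the 12 genes called for line 5 was among the 39, and refitted on transcripts of at least 1000 bases the test called 12 genes, 11 of them the same. The original call not among them, *C130046K22Rik*, has a transcript of 727 bases and was left out of that fit.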

How the data were processed

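RNA of pooled vomeronasal organs, 3 mice per pool, was sequenced as 75-nucleotide single-end reads from rRNA-depleted, directional libraries. Per the submitters' processing notes, STAR 2.6.1d, Cufflinks and GRCm38/mm10 were used, and the strand setting of counting is not given in the sources used here. The paper states that the alignment allowed no mismatches in a read and left out reads mapping to several places. Low counts can therefore also come from alleles that differ from the reference. The authors deposited 1 table of raw gene counts and 1 of RPKM values (reads scaled by gene length and library size) for each sex, so sex and table cannot be told apart. The deposited RPKM values served only as an alternative, as log2(RPKM + 1).

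The count tables were joined on gene name (24407 genes). In each, 4 entries with repeated date-like names were left out, and no sample column was unused. The male table also had 4 summary entries, holding 34.9 to 37.3% of its reads, which stayed out of library sizes. Genes were filtered with filterByExpr (minimum count 10), scaled by TMM and tested with edgeR 4.0.16 (R 4.3.3), line 5 against the other Control lines with sex as a covariate, with Benjamini-Hochberg adjustment and a threshold of 0.05. Standard errors of the log2 fold changes were derived from the fold change and the edgeR test statistic. They treat the pools of a line as separate libraries and are not errors over lines. Log2 CPM used a prior count of 2. Alternatives used DESeq2 1.42.0, limma 3.58.1, other filters and factors, the line as a block, each library or line left out, and, added after the data were seen, 2 treatments of transcript length. Floors of 3 counts cover counting error only. Counts were also simulated with every library drawn independently, without correlation within a line and without the short-transcript loss of line 5 females. There 36.4%, 79.1% and 85.1% of genes changed by 1, 2 and 3 log2 units were called, and 8 unchanged genes. Because the real libraries differ in these ways, the rates do not give the power of the real comparison.

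Genes were named where called, beyond the other 3 Control lines in both sexes and at 1 CPM or more, 10 at most in each direction, with called receptors and the marker checks. Values of 1 called gene are not reported here. The members and lists were chosen with earlier results of these data known. P-values measure only the spread between these pools. Positions are from GENCODE M21 and promoters from RefSeq, both on GRCm38. Shared words are 75-base stretches of a gene's transcripts that also occur in another gene.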

Additional observations from a re-analysis of the deposited data

Results flagged for a closer look

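The difference of line 5 depended on sex for 39 genes, all lower in line 5 females, and 32 of them had transcripts under 1000 bases. With 1 line 5 library per sex, sex and library cannot be told apart.

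Among the 6 other Control libraries, *Gmnn* was highest in line 2 males, at 14.2 CPM, and the gap to the next library was 0.732 of the range in log2 CPM. Such gaps were looked for in 32 groups of libraries, and chance gives about 1 in 20.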

How the results depend on the processing

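The 12 calls, all 12 beyond the other 3 Control lines and 5 beyond all 7 lines, became 422, 415 and 235 with DESeq2, and 149, 111 and 77 with a term for each Control line. With the line as a replicate block (limma-voom) or the pools of a line summed all 3 counts were 0. Leaving out 1 library gave 0 to 1002, 0 to 1002 and 0 to 329. Leaving out line 1 gave 22, 22 and 11, line 2 gave 1, 1 and 1, and line 4 gave 1133, 1133 and 379. Length offsets gave 19, 19 and 10. With HR libraries in the fit there were 18 calls, 16 beyond all 7 lines, and only *Gfpt1* was among the original 12. The 39 interaction calls became 265 with DESeq2, 13 with the line as replicate block (11 shared), 21 with length offsets, 0 for transcripts of at least 1000 bases and 0 to 55 without 1 other Control library.

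RLE factors and no filter on low counts kept the counts within 1.5 times. Of 251 values of named genes under the alternatives, none reversed, 149 kept their side of the threshold, 93 lost the call and 9, on the RPKM scale, moved. The causes were not tested. Control pools of a line share only the line, and 2 line 5 libraries of the lowest depth of their sex limit what low-count genes can show.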
